A study of Mus musculus with 4 samples.

Results

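The genes described here encode the working parts of the lysosome: 42 mouse genes for soluble hydrolases, lysosomal membrane proteins, the proton pump and the transcription factors Tfeb and Tfe3, out of 22911 genes named on the array. They were listed by name, with earlier results of these data known, and fall into 10 proteases, 8 glycosidases, 4 sulfatases, 5 lipid enzymes and activators, 5 membrane proteins, 7 subunits of the proton pump, 2 transcription factors and progranulin. RNA came from RAW264.7 cells, a transformed mouse macrophage-like line, and was hybridized in 1 colour to an Agilent whole-genome array. The 4 groups were Ruvbl2 siRNA with lipopolysaccharide (LPS, the outer membrane glycolipid of Gram-negative bacteria), control siRNA with LPS, Ruvbl2 siRNA with DMSO, and control siRNA with DMSO, with 1 array each. The Ruvbl2 siRNA was a pool, its target is spelt with a letter missing in the sample titles and was read from the series description, and the control siRNA was non-targeting. All 4 cultures were transfected, by electroporation or a lipid reagent, and analysed 2 days later. The sources used here give neither the transfection method of each culture nor how much LPS was added or for how long. The series asks what RUVBL2, an ATPase of chromatin remodelling and chaperone complexes, does in proinflammatory gene expression after LPS.

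Lysosomes are acidic compartments in which proteins, glycans, sulfated sugars and lipids are broken down, and macrophages use them to digest what they engulf. The proton pump, a vacuolar ATPase (V-ATPase) made of a cytosolic V1 sector that splits ATP and a membrane V0 sector that carries protons, keeps the lumen at the pH that the hydrolases need. Many lysosomal genes hold a palindromic E-box in their promoter that TFEB and TFE3 bind, and these factors are held in the cytosol by phosphorylation when nutrients are plentiful.

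Promoters of 34 of the 42 genes were in the RefSeq promoter table (GRCm38.p6, 300 bases spanning each start site), and Asah1, Atp6v1b2, Atp6v1c1, Atp6v1h, Ctsb, Ctsh, Galns and Npc1 were the 8 not in it. The 6-base palindrome CACGTG was present in 14 of the 34 genes (41.2%), against 2187 of 27025 genes in the whole table (8.09%). The longer palindrome TCACGTGA, which contains the first, was present in 6 of the 34 (17.6%), against 304 of all genes (1.12%). Counted over promoters, 14 of 40 (35%) of these genes' promoters and 7.15% of all 32851 promoters held CACGTG. Both motifs read the same on either strand. A match describes the letters and is no measurement of binding. The windows below show the holders of TCACGTGA, followed by Lamp1 with 4 copies of the shorter motif and Ctsl, the cathepsin with the largest LPS difference in control siRNA cells. Each window is written along the gene's own strand, CACGTG is in capitals, and positions are on GRCm38.p6.
Ctsa, chr2:164833751-164833793, plus strand: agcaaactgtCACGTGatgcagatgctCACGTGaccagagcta
Ctsd, chr7:142387910-142387935, minus strand: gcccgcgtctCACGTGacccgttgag
Gla, chrX:134601184-134601242, minus strand: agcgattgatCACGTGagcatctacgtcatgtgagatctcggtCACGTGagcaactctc
Mcoln1, chr8:3500438-3500489, plus strand: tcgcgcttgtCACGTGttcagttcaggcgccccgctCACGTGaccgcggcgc
Atp6v1a, chr16:44139375-44139400, minus strand: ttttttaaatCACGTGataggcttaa
Atp6v0d1, chr8:105566052-105566077, minus strand: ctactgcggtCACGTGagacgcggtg
Lamp1, chr8:13159090-13159161, plus strand: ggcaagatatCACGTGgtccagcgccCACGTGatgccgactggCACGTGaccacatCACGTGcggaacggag
Ctsl, chr13:64370741-64370766, minus strand: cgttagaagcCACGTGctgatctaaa
In Ctsa, Gla and Mcoln1 the motif occurred at 2 places within the window. The copies in Ctsa began 12 bases before and 5 bases after the start site, and the copy in Atp6v0d1 began 3 bases before it. The other holders of CACGTG were Arsa, Gaa, Glb1, Lgmn, Naglu and Sgsh, so that proteases, glycosidases, sulfatases, membrane proteins and pump subunits each had at least 1 holder, while no promoter of Tfeb or Tfe3 in the table held it.

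A gene's level is the processed signal of its brightest probe on the log2 scale, counted from the 75th percentile of its array. Each of the 42 was well above background on every array, as were 12471 genes in all. A single array per group leaves no replicate error and allows no test, and each difference was set beside the technical SD of a log2 difference from the 300 probes printed 10 times: 0.06 for levels above 3, 0.13 from -2 to 3 and 0.28 from -4 to -2. That SD covers spot error within an array and not the spread between cultures. It rests on 1071 values, each of 1 probe on 1 array, for levels above 3. From -2 to 3 it rests on 18 such values and from -4 to -2 on 24, so it is rough for dimmer genes. On the slide, Ruvbl2 siRNA filled row 2 and control siRNA row 1, so the row and the siRNA cannot be told apart. Ruvbl2 itself was at a level of 4.51 with Ruvbl2 siRNA and 4.92 with control siRNA under LPS, a 1.32-fold lower value, and at 4.67 with Ruvbl2 siRNA and 5.01 with control siRNA in DMSO, 1.26-fold lower. Its partner Ruvbl1 differed by 0.14 under LPS and 0.00 in DMSO on the log2 scale. Of 9 macrophage markers, 8 were well above background on every array and Mrc1 on the control siRNA LPS array alone, while fibroblast markers had 1 of 6, epithelial markers 0 to 1 of 5, lymphocyte markers 3 to 4 of 7 and osteoclast markers 6 to 7 of 7 above background. Centring on the 7 E1A spike-ins, RNA added in known amounts, in place of the 75th percentile adds 0.37 to every LPS difference with Ruvbl2 siRNA, 0.07 with control siRNA, -0.01 to every siRNA difference under LPS and -0.30 in DMSO.

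**Figure D1:**
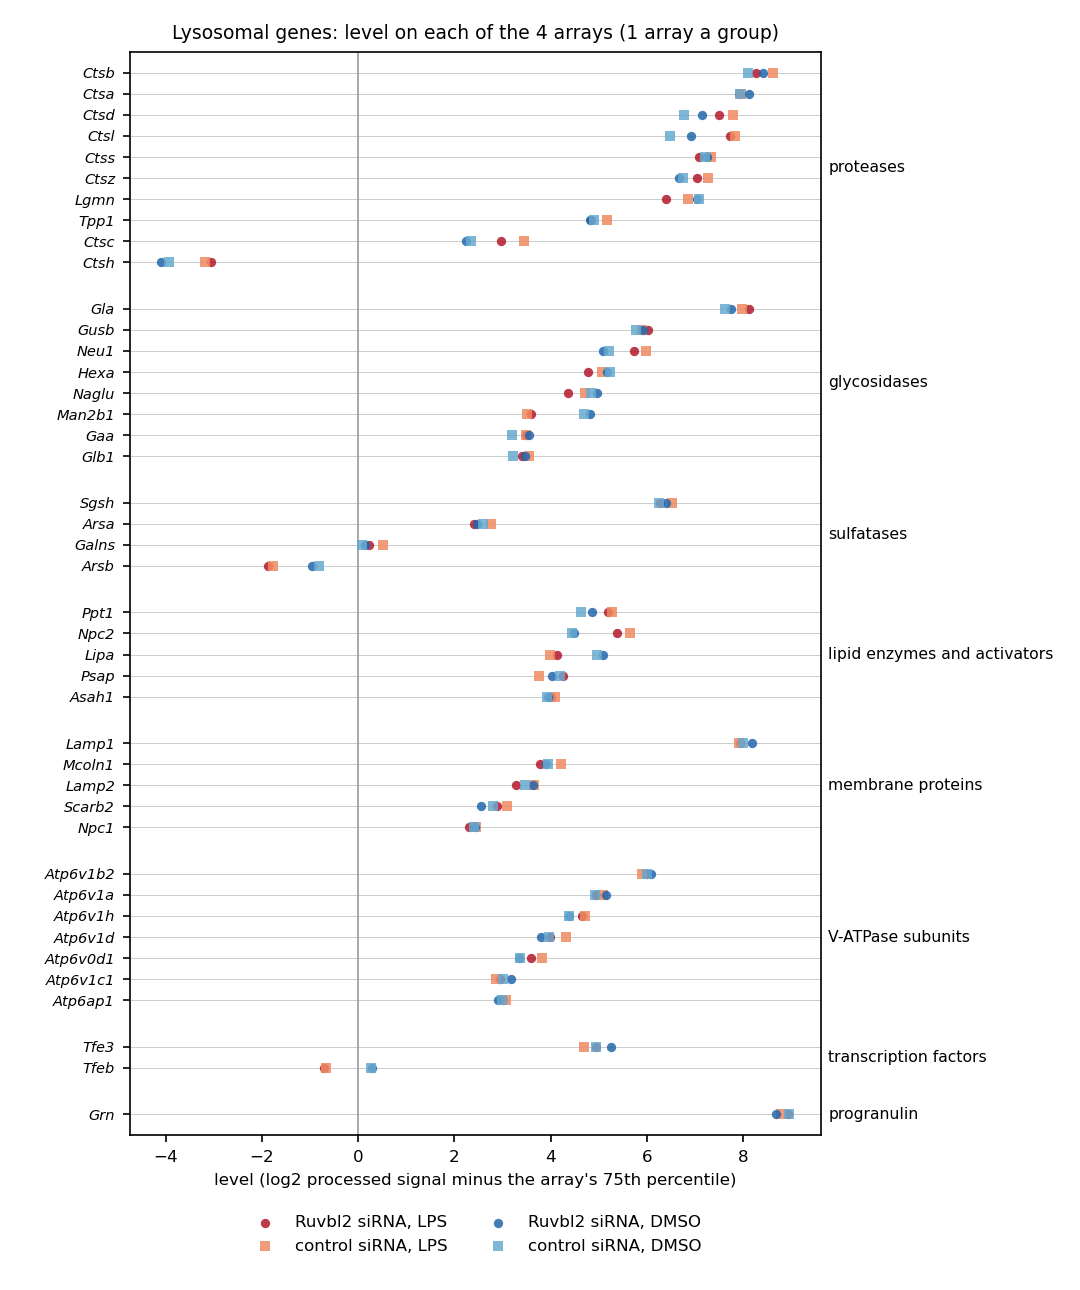
Level (log2 scale, counted from the 75th percentile of each array) of the 42 lysosomal genes on each of the 4 arrays, 1 row per gene, grouped by role. The 4 points of a row lie close together for most genes, and 39 of the 42 genes have a mean level of at least 0; levels of different genes come from different probes and are not to be set against each other.

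The first question was how the lysosomal genes responded to LPS. With control siRNA, 29 of the 42 (69.0%) were higher with LPS than with DMSO and the median difference was 0.18, against 6755 of 13512 genes compared, whose median was -0.00. With Ruvbl2 siRNA, 20 of the 42 were higher and the median was -0.06 (-0.03 over 13517 genes), which becomes 35 of 42 and 0.31 when the arrays are centred on the spike-ins. At 2-fold, 4 of the 42 were higher and 1 was lower with LPS in control siRNA cells, where 5.67% and 2.21% of all genes passed in those directions. In Ruvbl2 siRNA cells 1 was higher and 2 were lower, where 4.14% and 2.07% of all genes passed. At 1.5-fold, the counts were 7 higher and 4 lower with control siRNA (11.7% and 8.11% of all genes) and 5 higher and 6 lower with Ruvbl2 siRNA (9.11% and 7.83%). Each of these counts was within a few genes of the background share. In these bulk samples a smaller share of cells with a transcript and less of it per cell cannot be told apart.

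Among the proteases, 9 of 10 were higher with LPS in control siRNA cells (median 0.52) and 6 of 10 in Ruvbl2 siRNA cells (median 0.18). This contrast depends on the scaling: centred on the spike-ins, 9 of 10 were higher with LPS under both siRNAs. The medians were then 0.55 with Ruvbl2 siRNA and 0.59 with control siRNA. Ctsl, a cysteine protease that cleaves proteins inside the chain, had levels of 7.72 with LPS and 6.92 with DMSO in Ruvbl2 siRNA cells, and of 7.82 with LPS and 6.48 with DMSO in control siRNA cells. Both LPS arrays lay above both DMSO arrays, by 0.81 (1.75-fold) with Ruvbl2 siRNA and by 1.35 (2.54-fold) with control siRNA. Its probe was printed 10 times, and the SD over the 9 or 10 spots used on an array was 0.03 to 0.07. Ctsc, the dipeptidyl peptidase that activates granule serine proteases, had levels of 2.97 with LPS and 2.25 with DMSO under Ruvbl2 siRNA, against 3.45 with LPS and 2.36 with DMSO under control siRNA. It was 1.64-fold higher with LPS under Ruvbl2 siRNA and 2.14-fold higher under control siRNA. The aspartic protease Ctsd had levels of 7.49 with LPS and 7.15 with DMSO in Ruvbl2 siRNA cells and of 7.80 with LPS and 6.77 with DMSO in control siRNA cells. Its LPS difference was 0.35 with Ruvbl2 siRNA and 1.02 with control siRNA, with the 2-fold mark narrowly passed under control siRNA, where normexp gave 0.96 and quantile normalization 0.997.

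Ctsh, an aminopeptidase, had levels of -3.05 with LPS and -4.09 with DMSO in Ruvbl2 siRNA cells and of -3.17 with LPS and -3.93 with DMSO in control siRNA cells. Its LPS difference was 1.05 with Ruvbl2 siRNA and 0.76 with control siRNA, with a technical SD of 0.28, and over all processing settings tried it ranged from 0.21 to 1.41 with Ruvbl2 siRNA and from 0.27 to 0.83 with control siRNA. Ctsb, a cysteine protease with carboxydipeptidase activity, had levels of 8.27 with LPS and 8.41 with DMSO in Ruvbl2 siRNA cells, against 8.62 with LPS and 8.10 with DMSO in control siRNA cells. The LPS array was the lower of the pair with Ruvbl2 siRNA (-0.14) and the higher with control siRNA (0.52). Ctsa, a carboxypeptidase that also stabilizes β-galactosidase and neuraminidase, had levels of 7.92 with LPS and 8.13 with DMSO in Ruvbl2 siRNA cells and of 7.97 with LPS and 7.94 with DMSO in control siRNA cells. Lgmn, which cuts after asparagine, was the protease that was lower with LPS under both siRNAs, at levels of 6.40 with LPS and 7.04 with DMSO in Ruvbl2 siRNA cells (1.56-fold lower) and of 6.85 with LPS and 7.08 with DMSO in control siRNA cells (1.17-fold lower). The others were Ctsz, a carboxypeptidase (0.37 with Ruvbl2 siRNA, 0.51 with control siRNA), Ctss, which trims the invariant chain in antigen-presenting cells (-0.16 with Ruvbl2 siRNA, 0.12 with control siRNA), and the tripeptidyl peptidase Tpp1 (0.02 with Ruvbl2 siRNA, 0.26 with control siRNA).

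**Figure D2:**
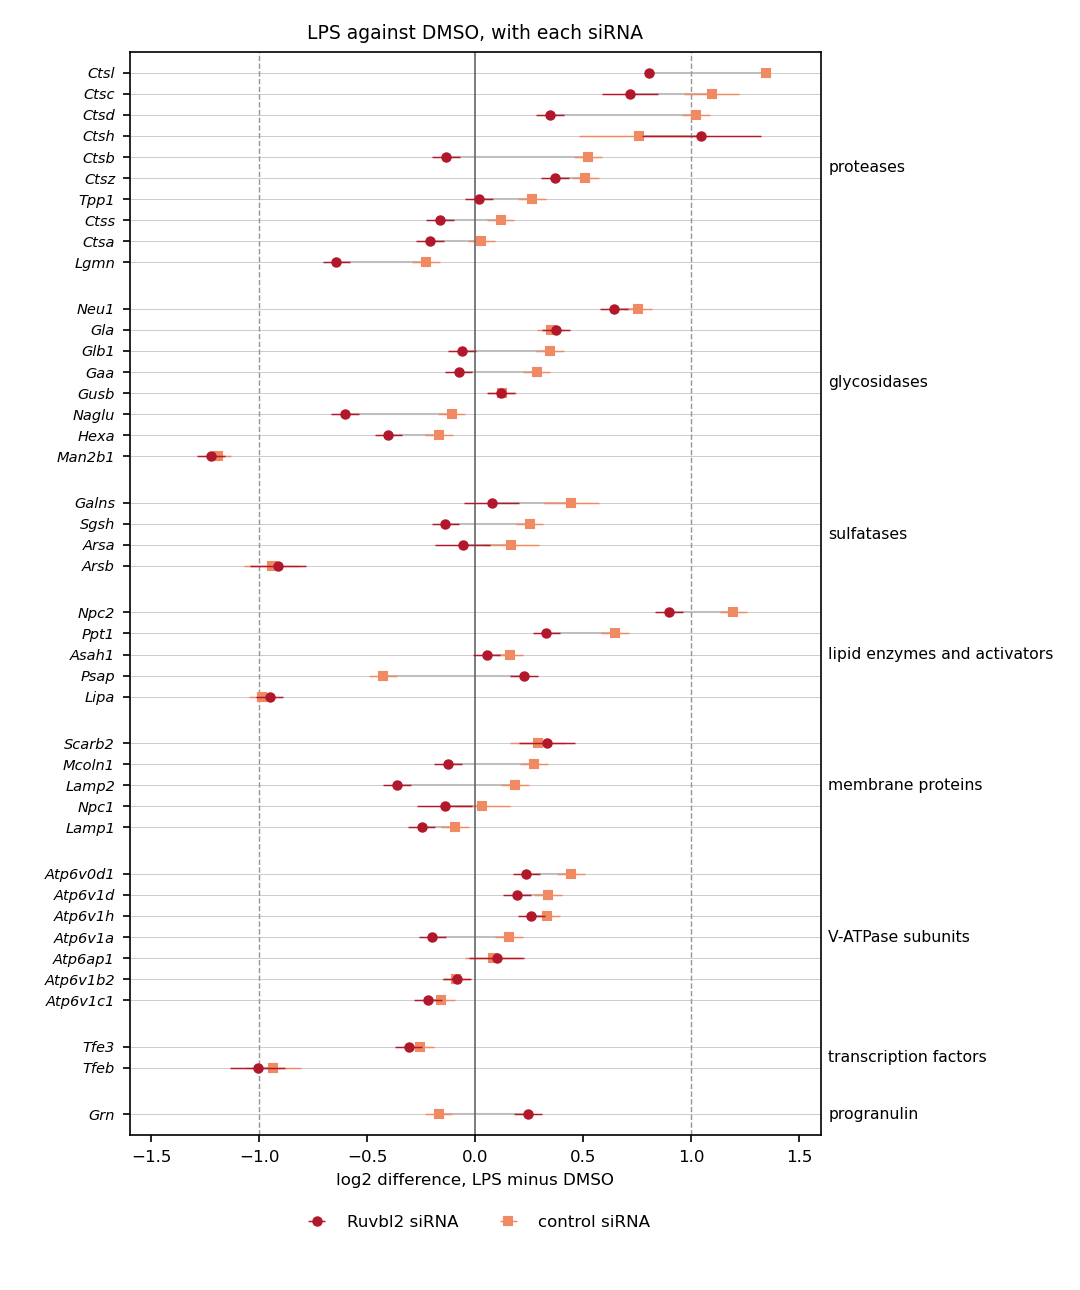
Log2 difference between LPS and DMSO for each lysosomal gene with Ruvbl2 siRNA (circles) and control siRNA (squares), 1 array per group, horizontal bars for the technical SD of a difference and dashed lines at 2-fold. Ctsl, Ctsc, Ctsd and Npc2 lie past 2-fold on the right with control siRNA, and Man2b1 lies past it on the left with both siRNAs.

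The glycosidases were divided. Man2b1, the lysosomal α-mannosidase, was more than 2-fold lower with LPS under both siRNAs, with levels of 3.60 with LPS and 4.82 with DMSO in Ruvbl2 siRNA cells and of 3.51 with LPS and 4.70 with DMSO in control siRNA cells. That is 2.34-fold lower with Ruvbl2 siRNA and 2.29-fold lower with control siRNA, so the differences under the siRNAs lay within the technical SD of each other, and the spike-in scale gives -0.86 with Ruvbl2 siRNA and -1.12 with control siRNA. Neu1, the sialidase, lay on the other side, with levels of 5.73 with LPS and 5.09 with DMSO in Ruvbl2 siRNA cells (1.56-fold higher) and of 5.98 with LPS and 5.22 with DMSO in control siRNA cells (1.69-fold higher). Naglu, which removes N-acetylglucosamine from heparan sulfate, was 1.52-fold lower with LPS under Ruvbl2 siRNA (levels of 4.36 with LPS and 4.97 with DMSO) and 1.08-fold lower under control siRNA (4.72 with LPS and 4.83 with DMSO).

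Gla, the α-galactosidase that clears globotriaosylceramide, had levels of 8.13 with LPS and 7.75 with DMSO in Ruvbl2 siRNA cells and of 7.98 with LPS and 7.63 with DMSO in control siRNA cells. Its LPS difference was nearly equal under the siRNAs (0.37 with Ruvbl2 siRNA, 0.35 with control siRNA), as was that of the β-glucuronidase Gusb (0.12 with both), whose levels were 6.03 with LPS and 5.91 with DMSO in Ruvbl2 siRNA cells and 5.89 with LPS and 5.77 with DMSO in control siRNA cells. Glb1, the β-galactosidase, had levels of 3.40 with LPS and 3.46 with DMSO in Ruvbl2 siRNA cells and of 3.55 with LPS and 3.21 with DMSO in control siRNA cells. Its LPS difference of -0.06 with Ruvbl2 siRNA lay within the technical SD, and that of 0.35 with control siRNA did not. A further, dimmer probe of Glb1 gave the reverse order, 0.20 with Ruvbl2 siRNA and 0.06 with control siRNA. Gaa, which degrades glycogen, gave -0.08 with Ruvbl2 siRNA and 0.28 with control siRNA, and on its further probe -0.55 and 0.33. Hexa, the α subunit of β-hexosaminidase, was lower with LPS under both (-0.40 with Ruvbl2 siRNA, -0.17 with control siRNA).

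Of the sulfatases, Arsb, which acts on dermatan and chondroitin sulfate, was lower with LPS under both siRNAs. Its levels were -1.88 with LPS and -0.96 with DMSO in Ruvbl2 siRNA cells (1.88-fold lower) and -1.76 with LPS and -0.82 with DMSO in control siRNA cells (1.92-fold lower). A further probe for Arsb gave larger differences in the same direction, -1.85 with Ruvbl2 siRNA and -2.14 with control siRNA, and the mean of the probes gave -1.38 with Ruvbl2 siRNA and -1.54 with control siRNA. The heparan sulfatase Sgsh had levels of 6.27 with LPS and 6.41 with DMSO in Ruvbl2 siRNA cells and of 6.52 with LPS and 6.26 with DMSO in control siRNA cells. Arsa, which degrades sulfatide, had levels of 2.42 with LPS and 2.48 with DMSO in Ruvbl2 siRNA cells and of 2.76 with LPS and 2.59 with DMSO in control siRNA cells. Its LPS differences, -0.06 with Ruvbl2 siRNA and 0.17 with control siRNA, lay near the technical SD of 0.13, and Galns, which acts on keratan sulfate, gave 0.08 with Ruvbl2 siRNA and 0.44 with control siRNA.

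The lipid genes included one of the largest LPS differences above 0 and one of the largest below it. Npc2, the soluble carrier that hands cholesterol to NPC1, had levels of 5.38 with LPS and 4.48 with DMSO in Ruvbl2 siRNA cells (1.86-fold higher) and of 5.64 with LPS and 4.45 with DMSO in control siRNA cells (2.29-fold higher). Lipa, the acid lipase that frees cholesterol and fatty acids from lipoprotein lipid, had levels of 4.13 with LPS and 5.08 with DMSO in Ruvbl2 siRNA cells (1.93-fold lower) and of 3.98 with LPS and 4.97 with DMSO in control siRNA cells (1.98-fold lower). For each of these genes the LPS arrays did not overlap with the DMSO arrays. Npc1, the membrane protein that takes cholesterol from NPC2, differed little, with levels of 2.30 with LPS and 2.44 with DMSO in Ruvbl2 siRNA cells and of 2.45 with LPS and 2.42 with DMSO in control siRNA cells. Ppt1, which strips palmitate from proteins, had levels of 5.19 with LPS and 4.86 with DMSO in Ruvbl2 siRNA cells (1.26-fold higher) and of 5.28 with LPS and 4.63 with DMSO in control siRNA cells (1.57-fold higher), and its other 2 probes gave 0.49 and 0.71 with Ruvbl2 siRNA and 1.11 and 1.01 with control siRNA. Psap, the precursor of the saposins that present lipids to hydrolases, had levels of 4.25 with LPS and 4.03 with DMSO in Ruvbl2 siRNA cells and of 3.77 with LPS and 4.19 with DMSO in control siRNA cells, which puts its LPS difference at 0.23 with Ruvbl2 siRNA and -0.43 with control siRNA. The acid ceramidase Asah1 had levels of 4.005 with LPS and 3.95 with DMSO in Ruvbl2 siRNA cells and of 4.08 with LPS and 3.92 with DMSO in control siRNA cells.

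None of the 5 membrane proteins and 7 pump subunits among the 42 genes reached 1.5-fold with LPS relative to the 75th percentile. With the spike-in shift of 0.37, Scarb2, Atp6v1h and Atp6v0d1 pass 1.5-fold higher with Ruvbl2 siRNA. Lamp1, an abundant glycoprotein of the limiting membrane, had levels of 7.94 with LPS and 8.19 with DMSO in Ruvbl2 siRNA cells and of 7.92 with LPS and 8.01 with DMSO in control siRNA cells. Mcoln1, the calcium channel TRPML1, had levels of 3.78 with LPS and 3.91 with DMSO in Ruvbl2 siRNA cells and of 4.21 with LPS and 3.94 with DMSO in control siRNA cells. The highest of its 4 levels was that with LPS and control siRNA. Lamp2, a partner of LAMP1 that also serves chaperone-mediated autophagy, differed by -0.36 with Ruvbl2 siRNA and 0.18 with control siRNA on its brightest probe, and Scarb2, which carries glucocerebrosidase to lysosomes, by 0.33 with Ruvbl2 siRNA and 0.29 with control siRNA.

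The pump subunits lay between -0.22 and 0.26 with LPS in Ruvbl2 siRNA cells (median 0.10) and between -0.16 and 0.44 in control siRNA cells (median 0.16). Atp6v1b2, a nucleotide-binding subunit of the V1 sector, had levels of 6.01 with LPS and 6.09 with DMSO in Ruvbl2 siRNA cells and of 5.91 with LPS and 5.995 with DMSO in control siRNA cells. Atp6v1a, the catalytic subunit, had levels of 4.95 with LPS and 5.15 with DMSO in Ruvbl2 siRNA cells and of 5.09 with LPS and 4.93 with DMSO in control siRNA cells. The LPS array was the lower with Ruvbl2 siRNA and the higher with control siRNA for this subunit. The accessory subunit Atp6ap1 had levels of 3.01 with LPS and 2.91 with DMSO in Ruvbl2 siRNA cells and of 3.07 with LPS and 2.99 with DMSO in control siRNA cells. The furthest above 0 with control siRNA was Atp6v0d1, which couples the sectors (0.24 with Ruvbl2 siRNA, 0.44 with control siRNA), followed by the rotor subunit Atp6v1d (0.19 with Ruvbl2 siRNA, 0.34 with control siRNA) and the regulatory subunit Atp6v1h (0.26 with Ruvbl2 siRNA, 0.33 with control siRNA). Atp6v1c1, part of the stator, gave -0.22 with Ruvbl2 siRNA and -0.16 with control siRNA.

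Tfeb, the factor best known for driving lysosomal genes, was lower with LPS under both siRNAs. Its levels were -0.71 with LPS and 0.30 with DMSO in Ruvbl2 siRNA cells (2.01-fold lower) and -0.67 with LPS and 0.27 with DMSO in control siRNA cells (1.91-fold lower). All 4 of its probes were lower with LPS, with differences of -0.18 to -1.04 under Ruvbl2 siRNA and of -0.49 to -0.93 under control siRNA. The related factor Tfe3 had levels of 4.94 with LPS and 5.25 with DMSO in Ruvbl2 siRNA cells and of 4.70 with LPS and 4.96 with DMSO in control siRNA cells, differences of -0.31 with Ruvbl2 siRNA and -0.25 with control siRNA. Over the settings the Tfe3 difference ranged from -0.45 to 0.06 with Ruvbl2 siRNA, so its sign depends on the processing, and from -0.31 to -0.18 with control siRNA. Grn, progranulin, a secreted glycoprotein that is cut into granulins in lysosomes, was bright on every array, with levels of 8.93 with LPS and 8.68 with DMSO in Ruvbl2 siRNA cells and of 8.79 with LPS and 8.96 with DMSO in control siRNA cells.

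The order of the genes by their LPS difference was much alike under the siRNAs. Across the 42 genes the LPS differences from the separate pairs of arrays had a Pearson's r of 0.88 and a Spearman's rho of 0.81, against 0.82 and 0.69 over the 12471 genes, and genes of a pathway measured on the same arrays are not independent points. The LPS difference was above 0 under both siRNAs for 18 genes and below 0 under both for 11, against 4422 and 4929 of the 12471. The LPS difference was below 0 with Ruvbl2 siRNA and above 0 with control siRNA for 11 genes, against 1774 of the 12471. For 2, Psap and Grn, it was the other way round, against 1346 of the 12471. Centring on the spike-ins adds 0.37 to the Ruvbl2 siRNA values and 0.07 to the control siRNA values. The 11 genes that were below 0 with Ruvbl2 siRNA alone then lie above 0 under both siRNAs.

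The second question was how Ruvbl2 siRNA cells differed from control siRNA cells. Under LPS, 30 of the 42 lysosomal genes (71.4%) were lower with Ruvbl2 siRNA and the median difference was -0.14, against 49.2% of 13472 genes and a median of 0.00. Genes with a mean level of at least 0, as 39 of the 42 have, had a median of 0.02. None of the 42 reached 2-fold or 1.5-fold in either direction, where 1.06% of all genes were higher and 1.46% lower at 2-fold and 3.85% higher and 5.26% lower at 1.5-fold. The number below 0 was 30 to 33 under every setting tried. Of the 9 macrophage markers 8 were below 0 in this comparison as well (median -0.12), and the mean level of the 9 was 4.77 with Ruvbl2 siRNA and 4.95 with control siRNA under LPS. Among the 8, Mrc1 was dim with Ruvbl2 siRNA and compared through the array's floor. Cd68 and Cd14 (each -0.04) lay within the technical SD of 0.06. The part of these markers in the result was not tested.

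**Figure D3:**
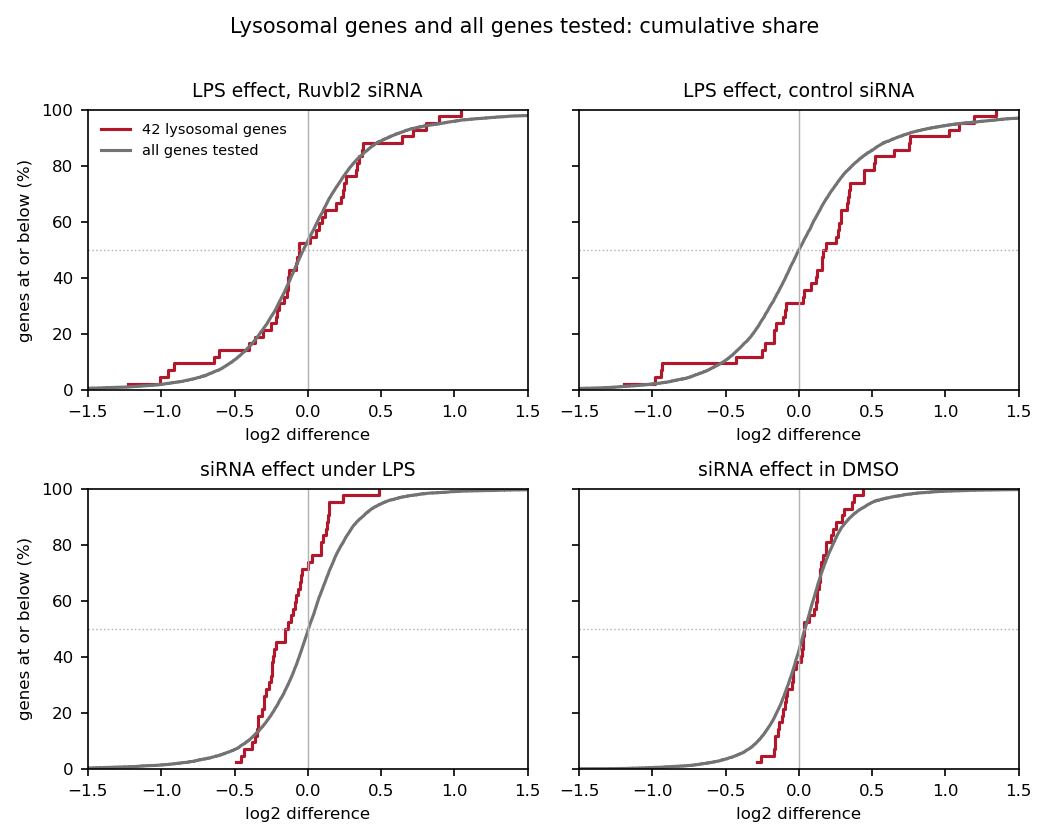
Share of genes at or below a given log2 difference, for the 42 lysosomal genes and for all genes compared, in each of the 4 comparisons. The lysosomal curve lies left of that of all genes over most of its range for Ruvbl2 siRNA against control siRNA under LPS (medians -0.14 and 0.00) and close to it in DMSO (0.03 and 0.04).

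By role, 9 of 10 proteases (median -0.28), all 4 sulfatases (-0.27), 4 of 5 membrane proteins (-0.22) and 5 of 7 pump subunits (-0.07) were below 0 under LPS, against 4 of 8 glycosidases (-0.08) and 3 of 5 lipid genes (-0.08). The largest differences below 0 were those of Ctsc (-0.49, 1.4-fold lower), Lgmn (-0.45, 1.37-fold lower) and Mcoln1 (-0.43, 1.35-fold lower). They were followed by Lamp2 (-0.38), Naglu (-0.36), Ctsb (-0.35), Arsa (-0.34), Tpp1 (-0.34), Atp6v1d (-0.31), Ctsd (-0.30) and Galns (-0.30), each more than 2 technical SDs from 0. Psap, which had no further probe to compare, stood furthest above 0 (0.49, 1.4-fold higher), followed by Tfe3 (0.24). Tfeb itself was at -0.04, within its technical SD of 0.13.

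In DMSO the lysosomal genes lay close to all genes. Relative to the 75th percentile, 26 of the 42 were higher with Ruvbl2 siRNA (median 0.03, against 0.04 over 13418 genes), and centred on the spike-ins 4 were higher and the median was -0.27 (-0.26 over all genes). Relative to the 75th percentile none of the 42 reached 2-fold or 1.5-fold. Of all genes 0.917% were higher and 0.537% lower at 2-fold, and 3.55% higher and 2.5% lower at 1.5-fold. Centred on the spike-ins, Grn (-0.59) narrowly passes 1.5-fold lower. The highest differences were those of Ctsl (0.44), Ctsd (0.37), Gaa (0.36), Ctsb (0.31) and Tfe3 (0.30), and the lowest were those of Grn (-0.28), Scarb2 (-0.26), Atp6v1d (-0.17) and Psap (-0.17). With the spike-in shift of -0.30, Ctsl (0.14) and Ctsd (0.07) stay above 0. Gaa, Ctsb and Tfe3 (-0.01) then lie within the technical SD of 0.06 from 0.

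Across the 42 genes the siRNA differences under LPS and in DMSO, which come from separate pairs of arrays, had a Pearson's r of 0.09 and a Spearman's rho of 0.13, against 0.35 and 0.32 over 12471 genes. The siRNA difference was below 0 under LPS and above 0 in DMSO for 17 genes, below 0 in both for 13, above 0 in both for 9, and above 0 under LPS and below 0 in DMSO for 3. Over the 12471 genes these counts were 2858, 3246, 4408 and 1959. Centred on the spike-ins, 4 of the 42 were above 0 in DMSO, so most of the 17 leave the first pattern. Ctsb shows the first pattern, with levels of 8.27 with Ruvbl2 siRNA and 8.62 with control siRNA under LPS, and of 8.41 with Ruvbl2 siRNA and 8.10 with control siRNA in DMSO. Its DMSO difference of 0.31 is nearly cancelled by the spike-in shift of -0.30. Lgmn shows the second, at 6.40 with Ruvbl2 siRNA and 6.85 with control siRNA under LPS, and at 7.04 with Ruvbl2 siRNA and 7.08 with control siRNA in DMSO.

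**Figure D4:**
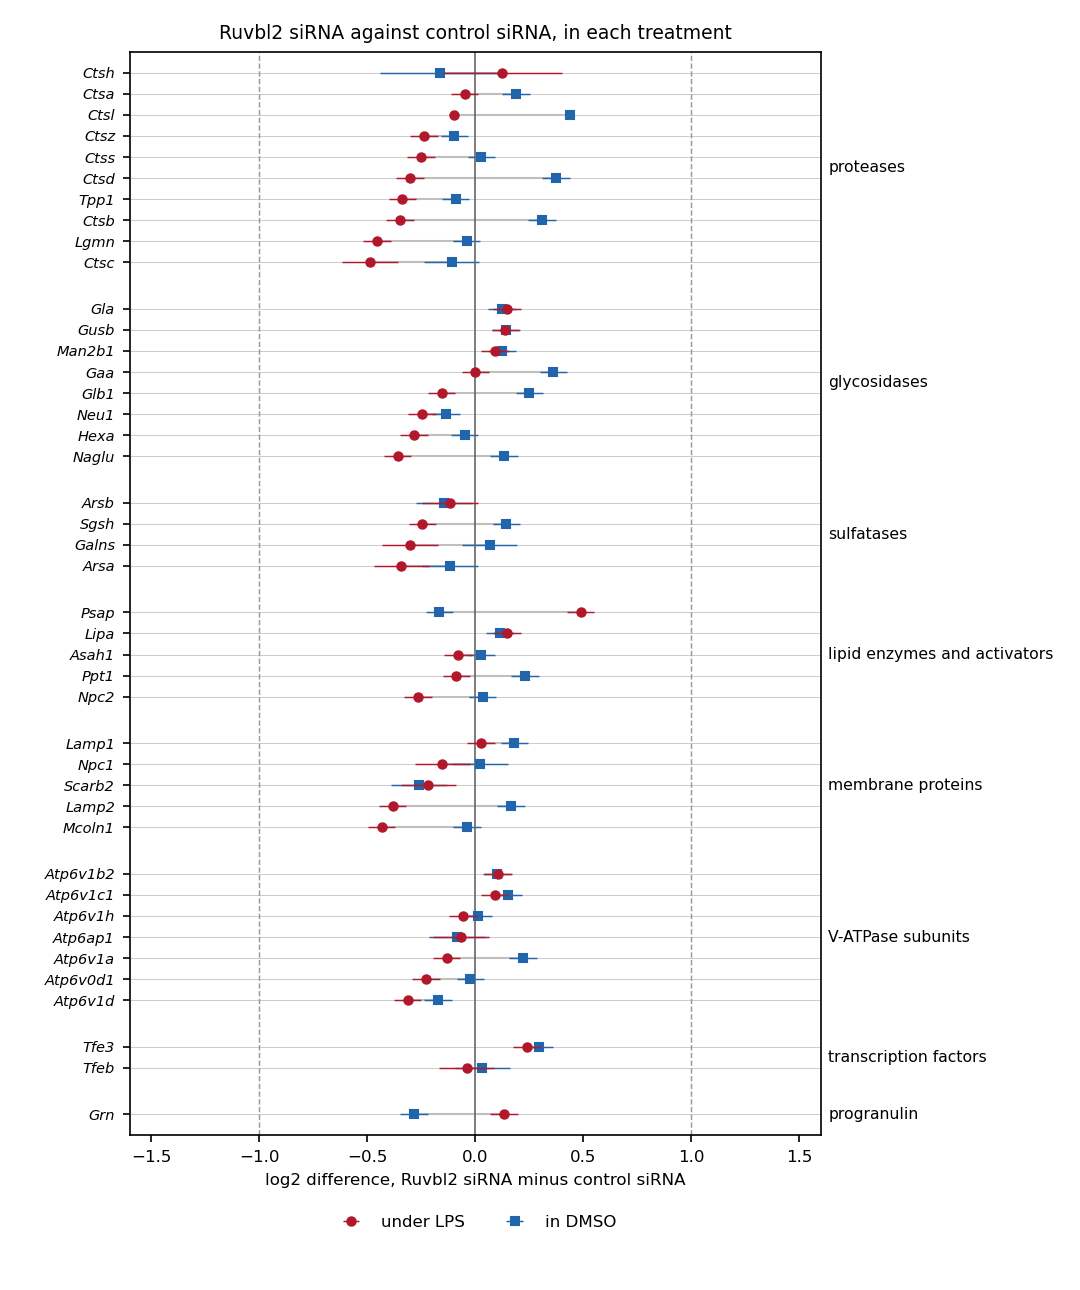
Log2 difference between Ruvbl2 siRNA and control siRNA for each lysosomal gene under LPS and in DMSO, 1 array per group, with horizontal bars for the technical SD of a difference. Under LPS 30 of the 42 genes lie below 0, with Ctsc, Lgmn and Mcoln1 furthest left and Psap furthest right; in DMSO 16 lie below 0.

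Taking the LPS difference with Ruvbl2 siRNA minus that with control siRNA uses all 4 arrays at once. It was below 0 for 33 of the 42 lysosomal genes (78.6%, median -0.19), against 55.0% of 12471 genes (median -0.03). Centred on the spike-ins, 15 of the 42 were below 0 and the median was 0.11, against 0.26 over all genes. Spike-in centring adds the same constant to every gene, so the gap of -0.16 between these medians cannot change with it. None of the 42 passed 2-fold, where 0.513% of all genes were higher and 1.18% lower. At 1.5-fold 1 was higher, Psap (0.65), and 2 were lower, Ctsd (-0.67) and Ctsb (-0.66), where 2.92% and 5.22% of all genes passed. With the spike-in shift of 0.30, neither Ctsd (-0.38) nor Ctsb passes 1.5-fold lower. Psap then stays past 1.5-fold higher, joined by Grn (0.71) and, narrowly, by Ctsh (0.586). By role the medians were -0.33 for proteases, -0.30 for sulfatases, -0.17 for glycosidases, -0.17 for membrane proteins, -0.11 for lipid genes and -0.07 for pump subunits. Ctsl (-0.54), Lamp2 (-0.55) and Naglu (-0.49) came next below Ctsd and Ctsb, and Grn (0.41) next after Psap, while Man2b1 (-0.03), Lipa (0.03), Arsb (0.03) and Gusb (-0.00) were near 0. The place of Grn rests on its brightest probe: its further probes gave -0.09 and -0.52, and the mean of its probes -0.07. The further probe of Arsb gave 0.30.

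Set out by promoter, the 14 genes with CACGTG had a median difference of LPS effects of -0.38, with 13 of 14 below 0. For the 20 genes whose listed promoters lack it the median was -0.09 and 14 were below 0, and for the 8 genes not in the table the median was -0.09 and 6 were below 0. Centring on the spike-ins adds 0.30 to each of these medians. The ranges overlapped, from -0.67 to 0.03 with the motif and from -0.55 to 0.65 without it. For LPS against DMSO the medians were -0.10 with Ruvbl2 siRNA and 0.26 with control siRNA for genes with the motif, and 0.11 with Ruvbl2 siRNA and 0.12 with control siRNA for genes without it. The spike-in shift adds 0.37 to those with Ruvbl2 siRNA and 0.07 to those with control siRNA, and each then lies above 0. For Ruvbl2 siRNA against control siRNA the medians with the motif were -0.19 under LPS and 0.16 in DMSO, and without it -0.17 under LPS and -0.07 in DMSO. Here the spike-in shift is -0.01 under LPS and -0.30 in DMSO, after which both DMSO medians lie below 0. This split was made with the values already seen and carries no test.

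How far a gene's value rests on 1 probe could be read from the 15 genes with more than 1 probe well above background on all arrays, which had 19 further probes. Their LPS difference had the sign of the brightest probe for 14 of 19 with Ruvbl2 siRNA and 15 of 19 with control siRNA, and their siRNA difference for 11 of 19 under LPS and 9 of 19 in DMSO. The median gap between probes of a gene was 0.26 with Ruvbl2 siRNA and 0.29 with control siRNA for LPS, and 0.21 under LPS and 0.14 in DMSO for the siRNA, which is as large as many of the siRNA differences above. Lamp2 was -0.38 on its brightest probe and -0.77 on the other for Ruvbl2 siRNA against control siRNA under LPS. In the same comparison Gaa was 0.00 on its brightest probe and -0.56 on the other, Tfe3 was 0.24 and -0.40, and the 2 further probes of Grn gave -0.24 and -0.40 where the brightest gave 0.13. The sign of Tfe3 and Grn therefore depends on the probe. With the mean of a gene's probes in place of the brightest, 33 of the 42 genes were lower with Ruvbl2 siRNA under LPS and the median was -0.20.

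**Figure D5:**
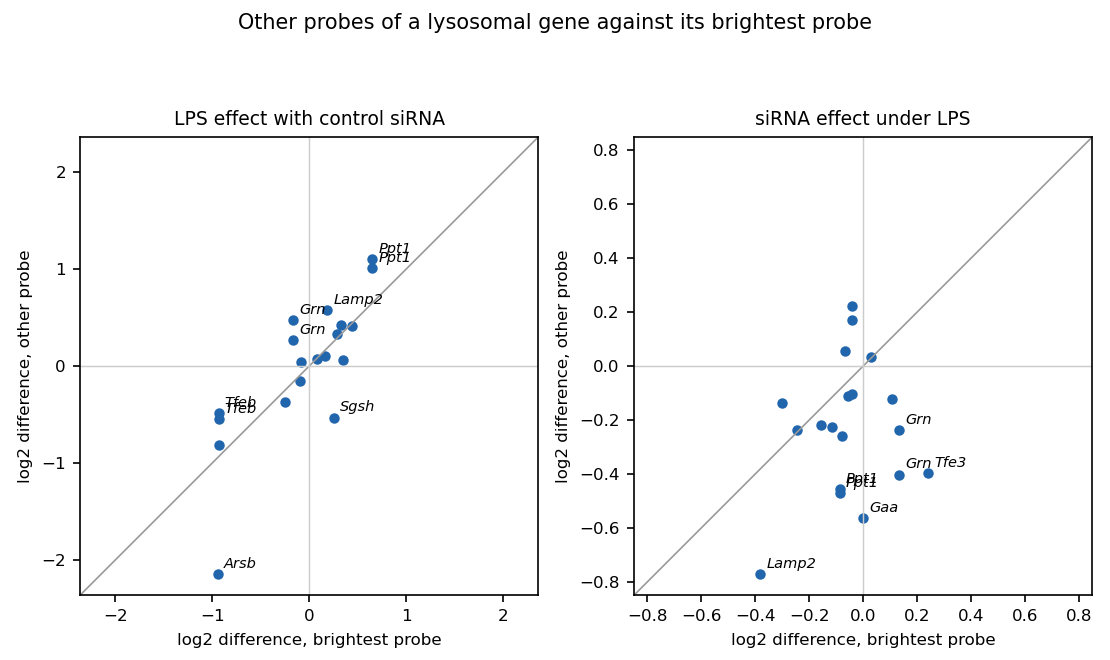
Log2 difference of each of the 19 further probes against that of the gene's brightest probe, for LPS against DMSO with control siRNA (left) and Ruvbl2 siRNA against control siRNA under LPS (right), with the line of equality. On the left 15 of 19 points share the sign of the brightest probe, and on the right 11 of 19 do.

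Other genes of the pathway gave the counts to set beside these. Of 104 further names, covering remaining pump subunits, proteases and their inhibitors, hydrolases, membrane proteins, delivery to the lysosome and control of TFEB, 101 were on the array and 94 were well above background on all 4 arrays. Their median LPS difference was -0.05 with Ruvbl2 siRNA and 0.07 with control siRNA, and 7 of 96 were higher and 13 lower at 1.5-fold with Ruvbl2 siRNA, against 14 higher and 9 lower of 94 with control siRNA. For Ruvbl2 siRNA against control siRNA under LPS, 42 of 94 were below 0 (median 0.02), beside the 30 of 42 above and 49.2% of all genes. In DMSO 71 of 96 were higher (median 0.11), against 57.7% of all genes (median 0.04). Their difference of LPS effects was below 0 for 66 of 94 (median -0.12), against 55.0% of all genes (median -0.03). The spike-in shift adds 0.37 to LPS differences with Ruvbl2 siRNA, -0.30 to siRNA differences in DMSO and 0.30 to the difference of LPS effects. The medians of -0.05, 0.11 and -0.12 then change sign. Among membrane proteins, Slc11a1, the metal transporter of phagosomes, was 3.20-fold higher with LPS under Ruvbl2 siRNA and 4.49-fold higher under control siRNA, and the pump subunit Atp6v0a1 was 1.62-fold higher under Ruvbl2 siRNA and 1.93-fold higher under control siRNA. Cst3, the secreted inhibitor of cysteine cathepsins, was 1.89-fold lower with LPS under Ruvbl2 siRNA and 2.02-fold lower under control siRNA. The sorting receptor Sort1 was 2.76-fold lower with LPS under Ruvbl2 siRNA and 2.19-fold lower under control siRNA. Between the siRNAs, 4 of 94 were higher and 4 lower with Ruvbl2 siRNA at 1.5-fold under LPS (3.85% and 5.26% of all genes). In DMSO 7 of 96 were higher and 2 lower (3.55% and 2.5% of all genes). Under LPS the protease Ctse was 1.82-fold lower, Laptm4b 1.64-fold lower and Scpep1 1.51-fold lower, and none of these reached 1.5-fold in DMSO. Ctse and Laptm4b were dim, with a technical SD of 0.28. The hyaluronidase Hyal1 was 3.43-fold lower with Ruvbl2 siRNA under LPS and 1.85-fold lower in DMSO, and the cathepsin inhibitor Cst7 was 1.84-fold higher under LPS and 1.93-fold higher in DMSO. The osteoclast protease Ctsk was 3.27-fold higher under LPS and 2.26-fold higher in DMSO, and the phosphatase Acp5 was 1.93-fold higher under LPS and 2.86-fold higher in DMSO. Of the other osteoclast markers compared, Nfatc1 was higher with Ruvbl2 siRNA (0.95 under LPS, 0.28 in DMSO), Ocstamp gave 0.13 under LPS and -0.87 in DMSO, Dcstamp -0.07 under LPS and -0.22 in DMSO, and Oscar -0.12 under LPS and 0.15 in DMSO (Calcr was dim on all arrays but that of control siRNA with DMSO).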

How the data were processed

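Each of the 4 groups was 1 Agilent 1-colour array of RAW264.7 RNA. The authors deposited intensity values: the processed signal of each spot, background-subtracted and detrended. The program was Agilent Feature Extraction, 11.5.1.1 per the file headers and 11.0 per the submitters' processing notes. The values were neither logged nor normalized between arrays, and the deposited value table held the same numbers for every one of 62976 spots. There were 56605 distinct RNA probes, of which 32994 were named for 22911 genes through RefSeq accessions.

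Spots of a probe were averaged without population outliers, and the array's 75th percentile was subtracted on the log2 scale. Python 3.11.15 with pandas 2.3.3 was used, and limma 3.58.1 in R 4.3.3 for normexp (offset 50) with quantile normalization, which was run on the median spot signal because the files hold no mean. Size rules were 2-fold and 1.5-fold. A gene dim on 1 array of a pair was set to that array's floor, the lowest level well above background. The comparisons of all genes were tested on simulated data. Alternatives were normexp with quantile, quantile alone, centring on the median of detected probes or on E1A spike-ins, the mean of probes, the deposited table and 1.5-fold.

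The members and lists were chosen with earlier results of these data known. The arrays' number limits the precision of every value. All levels were given for members past 1.5-fold in any comparison, for Tfeb and Tfe3 and for the 2 members of highest and the 1 of lowest mean level in each role. Of each other list, up to 3 genes per direction past 1.5-fold could be named. Psap, Ctsb and Grn are described further because their LPS differences had opposite signs under the siRNAs.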

Additional observations from a re-analysis of the deposited data

Results flagged for a closer look

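For 6 of the 42 genes the LPS difference had opposite signs under the siRNAs, each more than 2 technical SDs from 0, and the difference itself was not tested because each group is 1 array. With Ruvbl2 siRNA the LPS array was the lower for Ctsb (-0.14, against 0.52 with control siRNA), Lamp2 (-0.36, against 0.18 with control siRNA), Atp6v1a (-0.20, against 0.16 with control siRNA) and Sgsh (-0.14, against 0.25 with control siRNA). It was the higher for Psap (0.23, against -0.43 with control siRNA) and Grn (0.25, against -0.17 with control siRNA). Centring on the spike-ins adds 0.37 to the values with Ruvbl2 siRNA and 0.07 to those with control siRNA, after which Ctsb, Lamp2, Atp6v1a and Sgsh no longer have opposite signs. The further probes of Lamp2 (0.08 with Ruvbl2 siRNA, 0.58 with control siRNA) and Sgsh (-1.18 with Ruvbl2 siRNA, -0.53 with control siRNA) had the same sign under both siRNAs. Those of Grn gave 0.17 and -0.05 with Ruvbl2 siRNA and 0.26 and 0.47 with control siRNA. Psap, Ctsb and Atp6v1a had no further probe.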

How the results depend on the processing

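The count at 2-fold higher with LPS under Ruvbl2 siRNA was 1, against 0 with normexp, 5 centred on the spike-ins and 5 at 1.5-fold. The count lower was 2, against 0 with the spike-ins and 6 at 1.5-fold. Under control siRNA the count higher was 4, against 3 with normexp and 3 with quantile (each without Ctsd) and 7 at 1.5-fold, and the count lower was 1, against 2 with normexp, 2 with quantile, 2 with the mean of probes and 4 at 1.5-fold. For the difference of LPS effects 1.5-fold gave 1 higher and 2 lower, against 0 at 2-fold. Centring on the spike-ins moved the medians to 0.31 and 0.25 for LPS under Ruvbl2 siRNA and control siRNA, -0.27 for the siRNA in DMSO and 0.11 for the difference. The medians of all genes moved alongside, to 0.34, 0.07, -0.26 and 0.26. The share of all genes called that were higher was 90.3% with the spike-ins, against 66.6%, for LPS under Ruvbl2 siRNA, 23.7%, against 63.1%, for the siRNA in DMSO and 78.9%, against 30.3%, for the difference. With normexp it was 25% for the siRNA under LPS, against 42.1%, 35.9% for the siRNA in DMSO and 20% for the difference. Of the 70 values of the 14 named genes (5 comparisons each), 58 kept their sign with the spike-ins, 65 with normexp, 68 with the mean of probes and 69 or 70 in the others, and all 23 past 1.5-fold kept theirs. Of those 23, 18 stayed past 1.5-fold with the spike-ins, 18 with normexp, 22 with quantile and 23 in the others. No paired analysis was possible because each group is 1 array. With 1 array per group no difference between cultures could be measured, and spot error alone has an SD of 0.06 for bright genes and 0.28 for Ctsh.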
